A study of Mus musculus with 48 samples.

Results

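The 8 genes described here are Krt5 (ENSMUSG00000061527), Krt14 (ENSMUSG00000045545), Krt15 (ENSMUSG00000054146), Krt17 (ENSMUSG00000035557), Krt6a (ENSMUSG00000058354), Krt79 (ENSMUSG00000061397), Trp63 (ENSMUSG00000022510) and Ngfr (ENSMUSG00000000120). They were chosen by their Ensembl IDs, 8 of the 42548 genes of the deposited count table, and with their levels in these libraries known. The values that chose them were their CPM (counts scaled to a common library size) in all 4 arms and both compartments. The levels and differences of the 8 genes given here are therefore a description and carry no p-value of their own. Of the 8 genes, 6 are keratins and 2 are not: Trp63 encodes a transcription factor and Ngfr a cell surface receptor.

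The series measured RNA from the lungs of 24 mice with 3'-end sequencing (QuantSeq). In RiboTag mice, ribosomes of a chosen cell type bear an HA tag, and an anti-HA antibody pulls down the RNA on them. For each mouse, epithelium and whole lung were sequenced as separate libraries, 48 in all, and the labels give both kinds the same extraction text. The arms were bleomycin with 3G9 (4 mice), bleomycin with KIRA8 (5 mice), bleomycin with a control treatment (9 mice) and saline with a control treatment (6 mice). Bleomycin is a drug that injures the lung and leads to fibrosis in mice, 3G9 is an antibody to the αvβ6 integrin, which activates TGFβ, and KIRA8 is a small molecule that inhibits IRE1α, a sensor of endoplasmic reticulum stress. Batch S061 held 3 KIRA8 and 3 bleomycin control mice, and no saline mouse. Batch S135 held 2 KIRA8, 2 bleomycin control and 3 saline mice, and batch S151 held 4 mice with 3G9, 4 bleomycin control and 3 saline mice. The control treatment is labelled Vehicle in S061 and S135 and Axum8 in S151, so the control agent goes with the batch. Each arm held mice of both sexes. The strain, age, tagged cell type's Cre driver, doses and time after bleomycin were not stated in the labels. Nothing in the labels ties the libraries of an arm to separate litters or days beyond the mouse and the batch.

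Keratins form filaments from pairs of a type I and a type II protein. Krt5 (type II) and Krt14 (type I) are the classic pair of basal cells, the stem cells of airways, skin and other stratified or pseudostratified epithelia, and Krt15 is a further type I keratin of basal cells. Krt6a (type II) and Krt17 (type I) are called stress keratins because epithelia switch them on after wounding. Trp63 (p63) is the transcription factor on which the basal cell state depends, and Ngfr, the low-affinity nerve growth factor receptor, is a surface marker of airway basal cells that Schwann cells and other non-epithelial cells also carry. Krt79 (type II) is known from hair follicle and sebaceous duct cells, and has also been listed among transcripts of mouse alveolar macrophages. In the mouse, basal cells line mainly the trachea and large airways, and cells with Krt5 and p63 can appear in the distal lung after severe injury.

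On the RefSeq annotation of GRCm38.p6, the 3 type II genes lie together on chromosome 15, Krt6a at 101689928-101694305, Krt5 at 101707069-101712905 and Krt79 at 101929332-101940324. The 3 type I genes lie together on chromosome 11, Krt15 at 100131759-100135949, Krt14 at 100203162-100207510 and Krt17 at 100256215-100261029. Ngfr is also on chromosome 11, at 95568818-95587698, and Trp63 on chromosome 16, at 25683763-25892088. The RefSeq promoter table held a window for 4 of the 8 genes, Krt5, Krt14, Krt79 and Ngfr. The windows of Krt5 and Krt79 are shown because these type II genes of chromosome 15 ran opposite ways between the compartments in saline mice. Each is the 250 bases before the annotated start, on the minus strand, read 5′ to 3′, at chr15:101712906-101713155 for Krt5 and chr15:101940325-101940574 for Krt79. Capitals mark a match to the letters ATAAAA.
Krt5: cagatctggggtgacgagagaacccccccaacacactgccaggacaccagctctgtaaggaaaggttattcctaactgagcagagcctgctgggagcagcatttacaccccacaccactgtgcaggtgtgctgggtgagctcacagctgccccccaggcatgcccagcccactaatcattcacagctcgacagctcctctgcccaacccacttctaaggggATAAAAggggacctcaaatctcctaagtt
Krt79: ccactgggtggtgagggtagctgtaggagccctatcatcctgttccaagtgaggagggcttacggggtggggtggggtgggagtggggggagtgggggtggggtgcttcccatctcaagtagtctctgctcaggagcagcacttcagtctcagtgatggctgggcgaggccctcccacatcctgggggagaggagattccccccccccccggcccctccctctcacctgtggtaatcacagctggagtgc
The windows were searched on both strands for the AP-1 letters TGANTCA, for TATAAA and for ATAAAA, which was added after the windows had been read. Krt5 held ATAAAA once, 23 bases before the start, and Krt79 held none of the 3. Among all 32851 promoter windows, 17.0% held ATAAAA, 12.4% TATAAA and 6.75% TGANTCA, and matches of ATAAAA and TATAAA can overlap. G and C made up 56% of the Krt5 window and 64% of the Krt79 window.

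The levels of several of the 8 genes differed strongly between batches. Krt6a had 9.64 to 39.8 CPM in the 6 epithelial libraries of S061, against 0 to 1.46 CPM in the 12 epithelial libraries of bleomycin mice in the other batches. Krt14 had 4.63 to 17.9 CPM in epithelial libraries of S061, against 0 to 3.10 CPM in those of the other bleomycin mice. Krt17 had 5.58 to 23.9 CPM in S061, against 1.12 to 3.84 CPM in the others. None of these ranges overlapped. The share of all genes whose ranges do not overlap was not counted, here or between arms. Nothing particular to these genes is therefore read from it. In whole lung, Krt6a had 2.92 to 6.54 CPM in S061, against 0 to 0.866 CPM in the other bleomycin mice, and Krt14 1.92 to 4.63 CPM, against 0 to 1.05 CPM, while Krt17 overlapped. Ngfr had 8.21 to 13.1 CPM in epithelial libraries of S061, against 0 to 1.06 CPM in the other bleomycin mice, and in whole lung 7.51 to 12.3 CPM, against 0 to 3.95 CPM. Krt5 and Krt15 were also higher in S061, with medians over epithelial libraries of 46.8 and 166 CPM, against 8.96 and 39.2 CPM in the other bleomycin mice. Krt79 and Trp63 had lower medians in S061 than in the other bleomycin mice pooled, but these differed by batch. The epithelial median of Krt79 was 0.595 CPM in S061, against 4.12 CPM in the other bleomycin mice, and that of Trp63 was 0.910 CPM, against 1.70 CPM. Krt79 had 0.191 to 1.39 CPM in S061, 0.181 to 2.09 CPM in bleomycin mice of S135 and 1.64 to 6.85 CPM in those of S151. Trp63 had 0.338 to 1.46 CPM in S061, 0 to 0.977 CPM in S135 and 1.11 to 4.97 CPM in S151. Trp63 of S061 thus overlapped both other batches, unlike the epithelial levels of Krt6a, Krt14 and Krt17.

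S061 libraries also stood apart as a whole. A set of 146 genes with at least 50 CPM in every S061 library and a median under 0.5 CPM elsewhere held 6.01% to 12.7% of the counts of S061 libraries, against at most 0.846% in any other library. None of the 8 genes is among them, and their part in the S061 levels was not tested. Total counts were 21790283 to 51797377 in S061, 7163613 to 20468041 in S135 and 24751240 to 36945995 in S151. All arms were therefore compared within batches or with batch as a term in the fit.

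**Figure D1:**
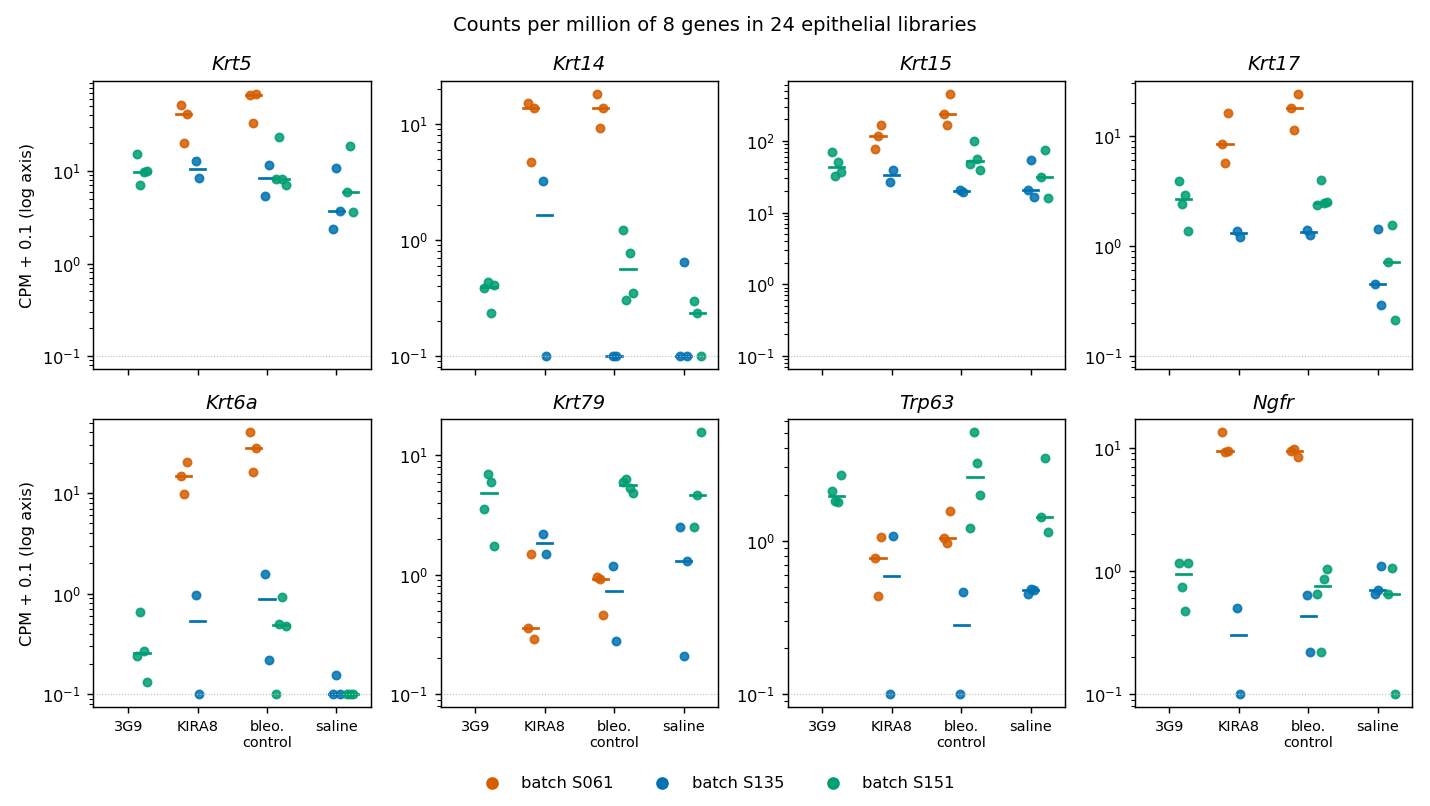
CPM of the 8 genes in each of 24 epithelial libraries, with 0.1 added and a log axis. Points are libraries, coloured by batch, bars are medians of an arm within a batch, and the dotted line marks a count of 0. Krt6a, Krt14, Krt17 and Ngfr sit far higher in S061, and Krt6a is at or near 0 in the 6 saline mice.

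**Figure D2:**
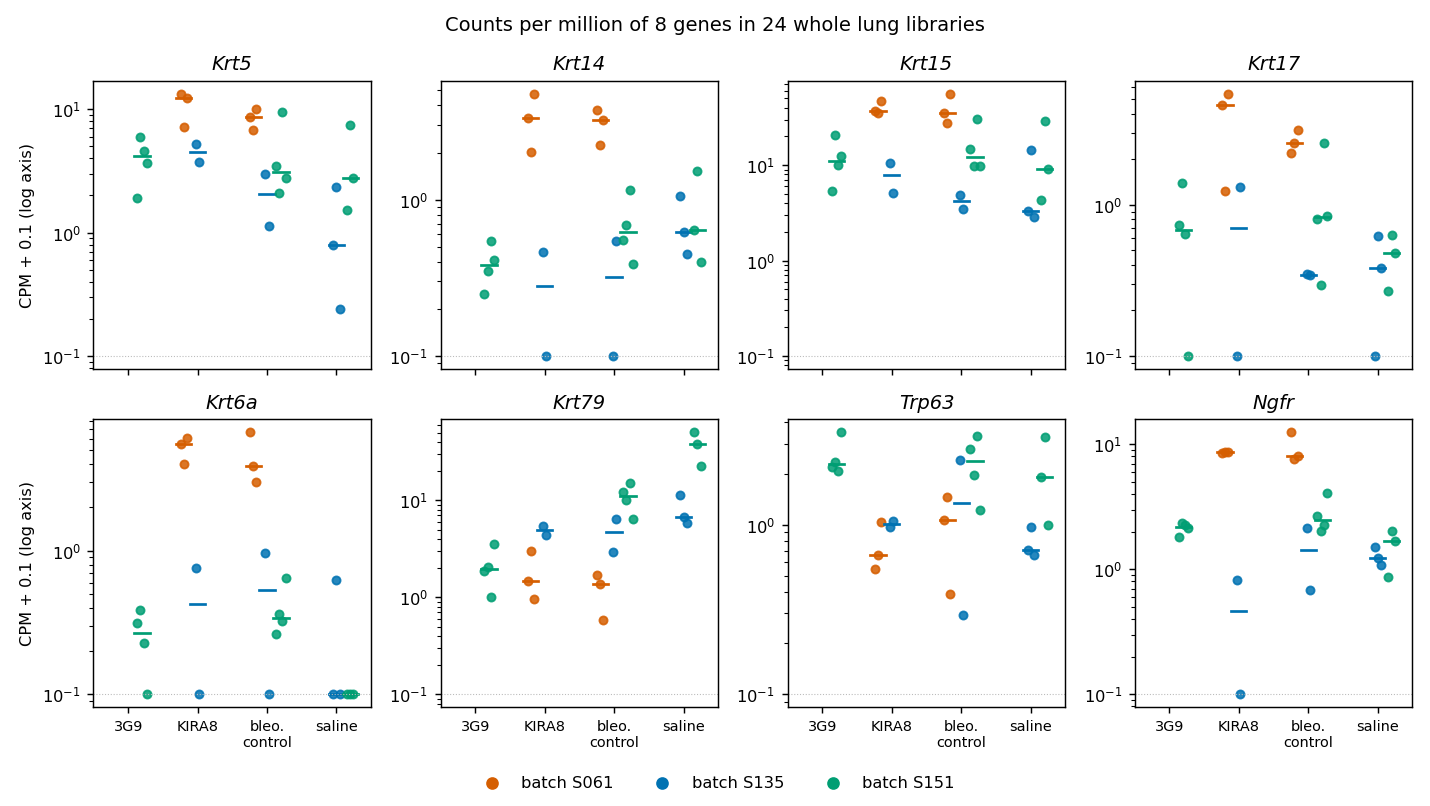
CPM of the same 8 genes in each of 24 whole lung libraries, drawn in the same way. Krt79 of batch S151 is lowest in the mice with 3G9 (0.916 to 3.43 CPM), between in bleomycin control mice (6.30 to 14.95 CPM) and highest in saline mice (22.7 to 49.98 CPM).

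The basal keratins Krt5 and Krt15 were higher in the epithelial library of every mouse than in its whole lung library. Krt15 was higher in the epithelial library of 24 of 24 mice, with a median log2 ratio of 1.97 and a range of 1.03 to 3.01 on the log2(CPM + 0.1) scale. Krt5 was also higher in 24 of 24, with a median of 1.43 and a range of 0.82 to 3.93. Krt17 was higher in the epithelial library of 21 of 24 mice, with a median of 1.57. The remaining genes split. Krt14 was higher in epithelium in 12 mice and in whole lung in 10, and all 6 mice of S061 were among the 12. Krt6a was higher in epithelium in 13 mice, 6 of them from S061, in whole lung in 5, and equal in 6. Trp63 was higher in epithelium in 11 mice and in whole lung in 13, with a median ratio of -0.08 by library totals and 0.39 under TMM scaling, which is described with the fits.

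Krt79 and Ngfr stood on the whole lung side. Krt79 was higher in whole lung in 20 of 24 mice, and the 4 mice in which it was higher in epithelium were the 4 with 3G9, by library totals. Ngfr was higher in whole lung in 17 of 24 mice, among them 11 of 11 in S151, while in S061 it was higher in epithelium in 5 of 6. In bulk RNA, fewer cells of a type and less RNA per cell cannot be told apart, here and in all comparisons given here. A difference in preparation between the 2 kinds of library cannot be told apart from the compartment either.

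**Figure D3:**
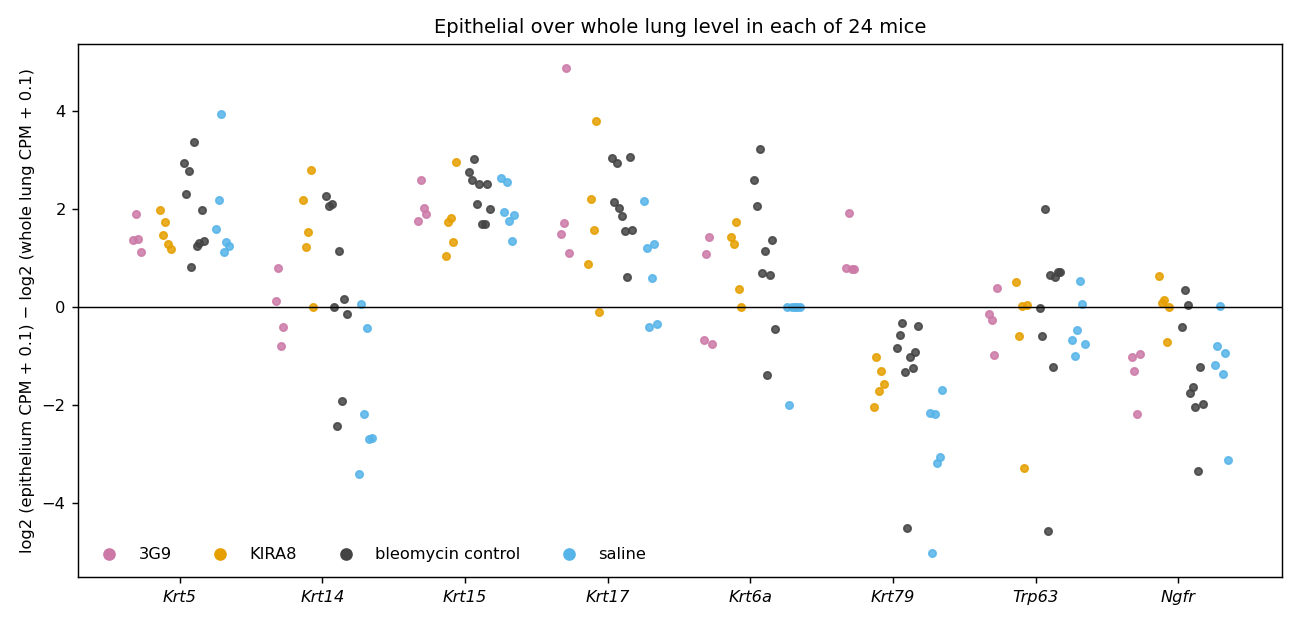
Difference between the epithelial and the whole lung library of each mouse on the log2(CPM + 0.1) scale, for the 8 genes; each point is a mouse, coloured by arm, and values above 0 are higher in epithelium. All 24 points of Krt5 and of Krt15 lie above 0, and the 4 points of Krt79 above 0 are the mice with 3G9, with mouse 204 joining them under TMM scaling.

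The compartments were also compared in fits over all genes with the mouse as a block. These fits use TMM scaling, which set epithelium higher relative to whole lung than library totals did by a median of 0.63 on the log2 scale (range 0.12 to 1.19 over 24 mice). Under TMM scaling Krt5, Krt15 and Krt17 were higher in epithelium in 24 of 24 mice, Krt14 in 15, Krt6a in 14, Ngfr in 7 and Krt79 in 5, the fifth being bleomycin control mouse 204. Trp63 was higher in epithelium in 16 mice under TMM scaling and in 11 by library totals, so its direction depends on the scaling. A gene is called where its adjusted p in edgeR's quasi-likelihood test, over all genes tested, is under 0.05. In saline mice, 5 of the 8 genes had enough counts to be tested, and 3 were called, where 57.5% of all 14885 genes tested were called. Krt5 was 6.18-fold (log2 fold change 2.63 ± 0.37 SE, n = 6 mice) and Krt15 6.85-fold (2.78 ± 0.15) higher in epithelium, and Krt79 was 3.98-fold lower (-1.99 ± 0.37). Krt14, Krt17 and Krt6a did not reach the count filter in saline mice. In bleomycin control mice 8 of 8 genes were tested and 5 were called, where 60.8% of 15624 genes were called. Krt15 was 7.02-fold (2.81 ± 0.10 SE, n = 9 mice), Krt17 6.51-fold (2.70 ± 0.26), Krt5 5.72-fold (2.51 ± 0.21) and Krt6a 3.88-fold (1.96 ± 0.42) higher in epithelium. The Krt6a value rests on S061, where it was abundant: without that batch it was 1.04 ± 0.84 and not called, while Krt5 (2.32 ± 0.31), Krt15 (2.73 ± 0.14) and Krt17 (2.60 ± 0.48) were called. Ngfr was 1.81-fold lower (-0.86 ± 0.33), a call that was lost when any 1 of 5 mice was left out (148, 204, 206, 208R or 225), with values of -1.13 to -0.67 over the 9 fits. Without S061 the value of Ngfr was -1.61 ± 0.50 and called. Krt14 (1.20 ± 0.54, and -0.0014 ± 0.43 without S061), Krt79 (-0.66 ± 0.37) and Trp63 (0.53 ± 0.58) were not called. With the rule having used these levels, nothing is read from the counts of called genes. Trp63, which shares basal cells with Krt5 and Krt15, had a log2 difference of 0.37 ± 0.59 in saline mice, within its error in both arms.

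Bleomycin against saline was read in S135 and S151, which held both arms, and in fits with batch as a term. Krt6a had the largest fitted fold change of the 8 genes in epithelium, at low counts. In epithelium of S151 it had 0, 0.374, 0.404 and 0.828 CPM in bleomycin control mice, and no count in any of the 3 saline mice. The pooled level of bleomycin control mice was 11.5-fold a floor of 3 counts summed over the saline libraries. Without mouse 225, which held 26 of the 48 counts, it was 7.12-fold. These values take the counts of bleomycin control mice as exact and are no lower bound. With counting error in both arms, the lower 95% limit was 9.00-fold. In S135 it had 0.121 and 1.46 CPM in bleomycin control mice, against 0, 0 and 0.0551 CPM in saline mice, where the only value above 0 is a single read. Mouse 208R of S151 had no Krt6a count in epithelium, so the range of bleomycin control mice touched that of saline mice.

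The summed epithelial counts of Krt6a in both batches were 69 in bleomycin control mice and 1 in saline mice, a ratio of 62.1 with a 95% counting interval of 10.8 to 2489. The fitted log2 fold change was 5.20 ± 1.11 (SE), which depends on how the fit treats counts near 0 and is no bound. Krt6a was called, the only 1 of the 8 genes, where 8.72% of all 17291 genes tested in epithelium were called. The median log2 fold change was 0.08 over the 8 genes and -0.0016 over all genes tested. The call of Krt6a was kept in each of 15 fits that left out 1 mouse and without S061 (5.30 ± 1.38). In these fits Krt6a passed the count filter through libraries of bleomycin mice, where it was higher, so the kept call is no separate support. Within S151 alone the value was 6.39 ± 2.25 and not called. With only the 2 arms in the fit, or within S135, Krt6a did not reach the count filter.

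In whole lung of S151, Krt6a had 0.161, 0.222, 0.261 and 0.544 CPM in bleomycin control mice and no count in the 3 saline mice. These groups did not overlap. The pooled level was 10.6-fold the same floor, with a lower 95% limit of 8.20-fold when counting error in both arms is taken in. In S135 it had 0 and 0.866 CPM in bleomycin control mice, against 0, 0 and 0.520 CPM in saline mice, where the highest saline value is mouse 152. The ratio of summed whole lung counts in S135 was 2.37, with a 95% counting interval of 0.856 to 7.52. Over both batches it was 7.58, with an interval of 3.26 to 21.6. The fit gave a log2 fold change of 2.58 ± 0.97, not called. It reached 5.93 and was called without mouse 152, and was also called without bleomycin control mouse 149. Mouse 152 was also the saline mouse with the highest epithelial Krt14, at 0.551 CPM. Krt6a and its near copy Krt6b have much sequence in common, as do Krt14, Krt16 and Krt17, and how the authors' counting split shared reads was not stated in the labels, so the levels of Krt6a, Krt14 and Krt17 are uncertain to that extent.

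Krt17, the type I stress keratin among these genes, lay higher in bleomycin control mice in epithelium of S151. It had 2.28, 2.36, 2.397 and 3.84 CPM in bleomycin control mice, against 0.112, 0.618 and 1.43 CPM in saline mice, and the groups did not overlap. In S135 it had 1.15 and 1.31 CPM in bleomycin control mice, against 0.188, 0.347 and 1.32 CPM in saline mice, which overlapped through saline mouse 152. A fitted log2 fold change of 1.22 ± 0.46 was not called, but was called without saline mouse 152 or saline mouse 207. In whole lung it was 0.93 ± 0.76, with 0.196 to 2.47 CPM in bleomycin control mice of S151, against 0.171 to 0.529 CPM in saline mice. That range in whole lung overlapped.

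Krt15 and Krt5 overlapped between the arms. Krt15 in epithelium of S151 had 38.8, 47.4, 55.8 and 99.1 CPM in bleomycin control mice, against 15.7, 31.1 and 74.5 CPM in saline mice. In S135 it had 19.5 and 20.7 CPM in bleomycin control mice, against 16.6, 20.4 and 54.6 CPM in saline mice. Both batches overlapped, and the fitted log2 fold change was -0.02 ± 0.44. Krt5 in epithelium of S151 had 6.97, 8.10, 8.18 and 23.4 CPM in bleomycin control mice, against 3.51, 5.89 and 18.4 CPM in saline mice. Its fitted log2 fold change was 0.18 ± 0.47 in epithelium and 0.49 ± 0.47 in whole lung. Within S151, saline mouse 207 and bleomycin control mouse 206 had the highest epithelial Krt5, Krt15 and Trp63 of their arms.

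Krt14, the basal partner of Krt5, stood near the limit of counting outside S061. In epithelium of S151 it had 0.202 to 1.11 CPM in bleomycin control mice, against 0 to 0.195 CPM in saline mice. The ranges did not overlap in CPM, but the read counts did. Bleomycin control mouse 206 had 5 reads (0.202 CPM) and saline mouse 230 had 6 (0.195 CPM). In epithelium of S135 both bleomycin control mice had no count, and in saline mice it was 0, 0 and 0.551 CPM. The fitted log2 fold change was 1.49 ± 0.95 in epithelium and -0.87 ± 0.53 in whole lung, neither called. Trp63 in epithelium of S151 had 1.11, 1.90, 3.12 and 4.97 CPM in bleomycin control mice, against 1.04, 1.33 and 3.35 CPM in saline mice, with a fitted log2 fold change of -0.15 ± 0.59. Ngfr had fitted log2 fold changes of -0.84 ± 0.55 in epithelium and 0.31 ± 0.36 in whole lung. Trp63 overlapped between the arms in epithelium of both batches. Ngfr had 0.121 and 0.538 CPM in epithelium of bleomycin control mice of S135, against 0.555, 0.606 and 1.003 CPM in saline mice. These did not overlap, but the gap was narrow (0.538 against 0.555 CPM) and rests on few counts. In S151 the epithelial levels of Ngfr overlapped.

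Krt79 was lower in whole lung of bleomycin control mice. In S151 it had 6.30, 10.01, 12.0 and 14.95 CPM in bleomycin control mice, against 22.7, 38.3 and 49.98 CPM in saline mice, and the groups did not overlap. In S135 it had 2.84 and 6.30 CPM in bleomycin control mice, against 5.77, 6.68 and 11.1 CPM in saline mice, which overlapped. The fitted log2 fold change was -1.54 ± 0.35, a 2.90-fold lower level. Krt79 was called, 1 of the 8 genes, where 10.1% of all 19345 genes tested in whole lung were called. The median over the 8 genes was 0.31 and over all genes tested -0.012. The value stayed between -1.81 and -1.28 over the 15 fits that left out a mouse. Within S151 alone it was -1.97 ± 0.34 and called, and within S135 -0.78 ± 0.45 and not called. In epithelium Krt79 overlapped between the arms in both batches, with a fitted log2 fold change of -0.80 ± 0.54.

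Whether the bleomycin response itself differed between compartments was fitted as an interaction with the mouse as a block. None of the 8 genes was called by edgeR, where 0.162% of 17956 genes were called, 0 of the 8 had an unadjusted p under 0.05 and 0 was called by DESeq2. The log2 difference of responses, epithelium minus whole lung, was 3.46 ± 1.76 for Krt6a (0.999 if saline mouse 152 is left out and 5.01 if bleomycin control mouse 148 is), 1.34 ± 1.21 for Krt14, 0.98 ± 0.54 for Krt79 and 0.84 ± 0.66 for Krt17. For Krt15 it was -0.06 ± 0.16, the narrowest error of the 8. The fold differences of Krt6a and Krt79 in 1 compartment are thus not shown to differ from those in the other.

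**Figure D4:**
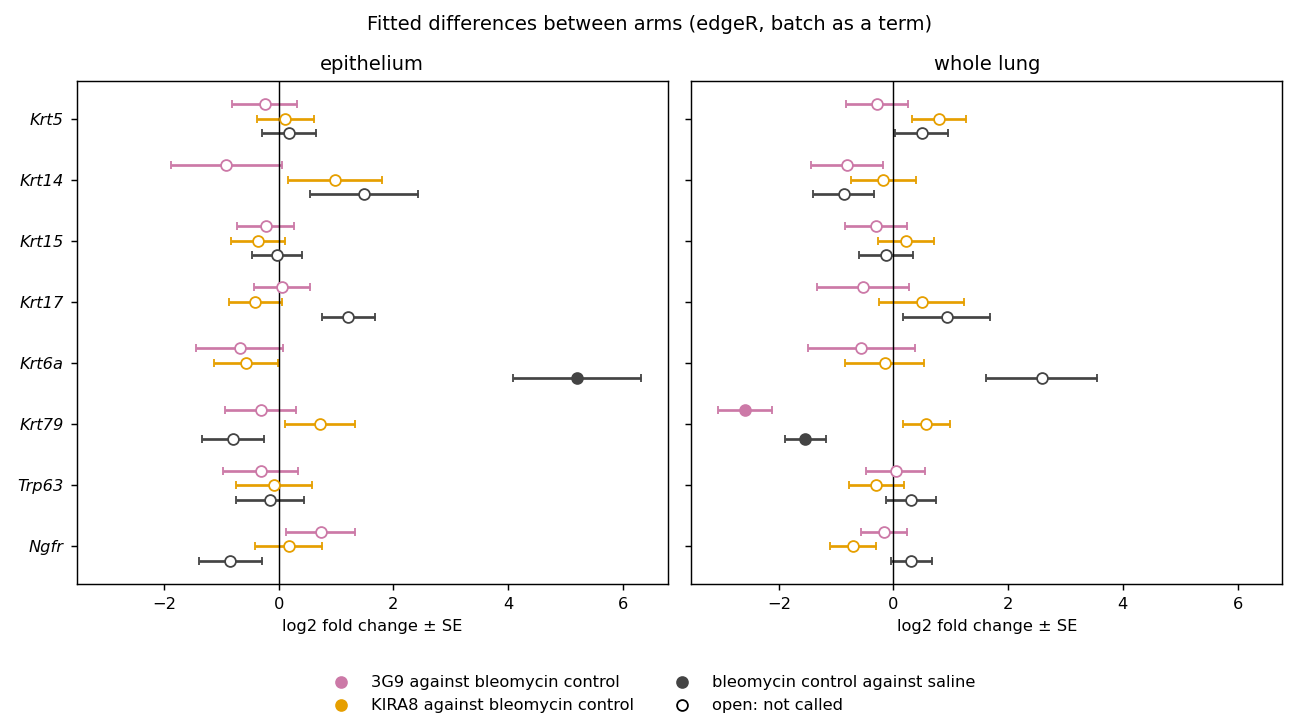
Fitted log2 fold changes ± SE of the 8 genes in epithelium (left panel) and whole lung (right panel) for 3 comparisons of arms, with batch as a term. Filled points are called at an adjusted p under 0.05 over all genes tested: Krt6a in epithelium (5.20) and Krt79 in whole lung (-1.54), both bleomycin control against saline, and Krt79 in whole lung for 3G9 (-2.58).

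For KIRA8 against bleomycin control, none of the 8 genes was called by edgeR in epithelium, where 0.260% of genes were called, nor in whole lung, where 0.527% were. At an unadjusted p under 0.05, 0 of the 8 passed in epithelium and 0 in whole lung, and DESeq2 called 0 of them in either. In epithelium the batches ran apart. Krt15 in S061 had 76.2, 117 and 166 CPM in KIRA8 mice, against 167, 233 and 447 CPM in bleomycin control mice, while in S135 it had 26.7 and 39.6 CPM in KIRA8 mice, against 19.5 and 20.7 CPM in bleomycin control mice. The arms did not overlap in either batch, with KIRA8 lower in S061, by a narrow gap, and higher in S135. The gap in S061 lay between 165.8 CPM in KIRA8 mouse 41 and 166.5 CPM in bleomycin control mouse 31. The part of the 146 genes high only in S061 in these levels was not tested, and S135 held 2 mice of each arm. Fitted within a batch, the log2 fold change of Krt15 was -1.08 ± 0.40 in S061 and 0.82 ± 0.27 in S135, neither called, and with both batches in a fit it was -0.36 ± 0.47. The difference between batches was not tested.

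For Krt5 in epithelium, the log2 fold change was -0.37 ± 0.42 within S061 and 0.42 ± 0.45 within S135, each within its error. In S061 it had 19.8, 41.3 and 52.3 CPM in KIRA8 mice, against 33.0, 65.6 and 67.8 CPM in bleomycin control mice, and in S135 it had 8.38 and 12.6 CPM, against 5.22 and 11.4 CPM. These ranges overlapped in both batches. In whole lung, Krt5 had 7.11, 12.3 and 13.1 CPM in KIRA8 mice of S061, against 6.62, 8.46 and 9.87 CPM in bleomycin control mice, and 3.63 and 5.09 CPM, against 1.03 and 2.91 CPM, in S135. In the fit over both batches, the log2 fold change was 0.80 ± 0.47. In whole lung Krt5 thus lay on the higher side with KIRA8 in both batches, without overlap in S135 alone.

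The stress keratins of epithelium in S061, where they were most abundant, lay on the lower side with KIRA8. Krt6a had 9.64, 14.6 and 20.2 CPM in KIRA8 mice, against 16.1, 27.9 and 39.8 CPM in bleomycin control mice. Krt17 had 5.58, 8.32 and 15.9 CPM in KIRA8 mice, against 11.2, 18.005 and 23.9 CPM in bleomycin control mice. Both overlapped, with within-batch log2 fold changes of -0.75 ± 0.38 for Krt6a and -0.66 ± 0.41 for Krt17. In the same S061 libraries, the 146 genes high only in that batch held 9.25% to 12.7% of counts in KIRA8 mice, against 6.01% to 8.59% in bleomycin control mice, and their part in these values was not tested. In whole lung of S061 the values were 0.16 ± 0.32 for Krt6a and 0.44 ± 0.46 for Krt17. Whole lung of the same mice thus lay on the higher side, within the error of each value.

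Ngfr had 9.06, 9.34 and 13.1 CPM in epithelium of KIRA8 mice of S061, against 8.21, 9.21 and 9.64 CPM in bleomycin control mice. In whole lung it had 8.43, 8.49 and 8.62 CPM in KIRA8 mice of S061, against 7.51, 8.01 and 12.3 CPM in bleomycin control mice. Both ranges overlapped. In whole lung of S135 it had 0 and 0.728 CPM in KIRA8 mice, against 0.586 and 2.04 CPM in bleomycin control mice. The whole lung log2 fold change was -0.16 ± 0.23 within S061 and -1.69 ± 1.28 within S135. It was -1.96 ± 0.81 without S061, in a fit that also held S151, and -0.71 ± 0.40 over both batches. The epithelial log2 fold change of Ngfr was 0.17 ± 0.58. Krt14, Krt79 and Trp63 had fitted log2 fold changes of 0.98 ± 0.81, 0.72 ± 0.61 and -0.08 ± 0.67 in epithelium. The Krt14 value rests in S135 on mouse 154, which had 3.10 CPM, while KIRA8 mouse 155 and both bleomycin control mice had no count, and was -0.14 without mouse 154.

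The comparison of 3G9 with bleomycin control lies in S151. In epithelium edgeR called none of the 8 genes and 0% of all genes tested, with 566 of 17291 genes and 0 of the 8 at an unadjusted p under 0.05, while DESeq2 called 71 genes and 0 of the 8. The 8 genes overlapped between the arms in epithelium. Krt15 had 32.6, 37.0, 50.3 and 69.2 CPM in mice with 3G9, against 38.8, 47.4, 55.8 and 99.1 CPM in bleomycin control mice. Krt5 had 6.99, 9.55, 9.88 and 15.4 CPM in mice with 3G9, against 6.97, 8.10, 8.18 and 23.4 CPM in bleomycin control mice. Krt17 had 1.26, 2.30, 2.82 and 3.79 CPM in mice with 3G9, against 2.28, 2.36, 2.397 and 3.84 CPM in bleomycin control mice. In the fit, log2 fold changes were -0.23 ± 0.50 for Krt15, -0.24 ± 0.56 for Krt5 and 0.05 ± 0.49 for Krt17, each within its error. Krt17 with 3G9 was thus near bleomycin control mice and overlapped saline mice through mouse 219.

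Krt6a with 3G9 had 0.0341, 0.142, 0.168 and 0.555 CPM in epithelium, the lowest of them a single read, against 0, 0.374, 0.404 and 0.828 CPM in bleomycin control mice. In whole lung it had 0, 0.126, 0.211 and 0.286 CPM with 3G9, against 0.161, 0.222, 0.261 and 0.544 CPM in bleomycin control mice. The pooled level of mice with 3G9 was 7.04-fold the saline floor in epithelium and 5.56-fold in whole lung. Without mouse 218, which held 20 of the 30 epithelial counts, the epithelial value was 3.31-fold. Counting error in the 3G9 arm is not taken in, so these are no lower bounds. Relative to bleomycin control mice, the fitted log2 fold change was -0.68 ± 0.76 in epithelium, from -1.56 without 3G9 mouse 218 to -0.07 without bleomycin control mouse 225. In whole lung it was -0.56 ± 0.93, from -0.95 to -0.01 when a mouse was left out. At these low counts a difference between 3G9 and bleomycin control was not detectable.

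Krt79 was the gene of the 8 that separated 3G9 from bleomycin control, and did so in whole lung. It had 0.916, 1.75, 1.97 and 3.43 CPM in mice with 3G9, against 6.30, 10.01, 12.0 and 14.95 CPM in bleomycin control mice. All mice with 3G9 lay below all bleomycin control mice, which in turn lay below all saline mice of the batch. The fitted log2 fold change was -2.58 ± 0.47, a 6.00-fold lower level. It was called, 1 of the 8 genes, where 0.196% of all 19345 genes tested were called, and the median over the 8 genes was -0.42, against -0.0074 over all genes. The call was lost when bleomycin control mouse 206 or any of the mice with 3G9 218, 219 and 226R was left out, with values of -2.97 to -2.34 over the 13 fits. It was also lost when only the 2 arms or only S151 entered the fit, with a value of -2.38 ± 0.40 within S151.

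In the epithelial libraries of the same mice, Krt79 had 1.64, 3.47, 5.92 and 6.85 CPM with 3G9, against 4.76, 5.22, 5.85 and 6.26 CPM in bleomycin control mice. The ranges overlapped, and the fitted log2 fold change was -0.31 ± 0.62. By library totals, each mouse with 3G9 had more Krt79 in its epithelial than in its whole lung library, and each bleomycin control and saline mouse of S151 had less. Under TMM scaling mouse 204 of the bleomycin control arm also had more. A difference between the compartments in the effect of 3G9 was not tested. Marker lists of other cell types are held by symbol and could not be paired with the Ensembl IDs, so the part of other cell types in the whole lung level of Krt79 was not tested.

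**Figure D5:**
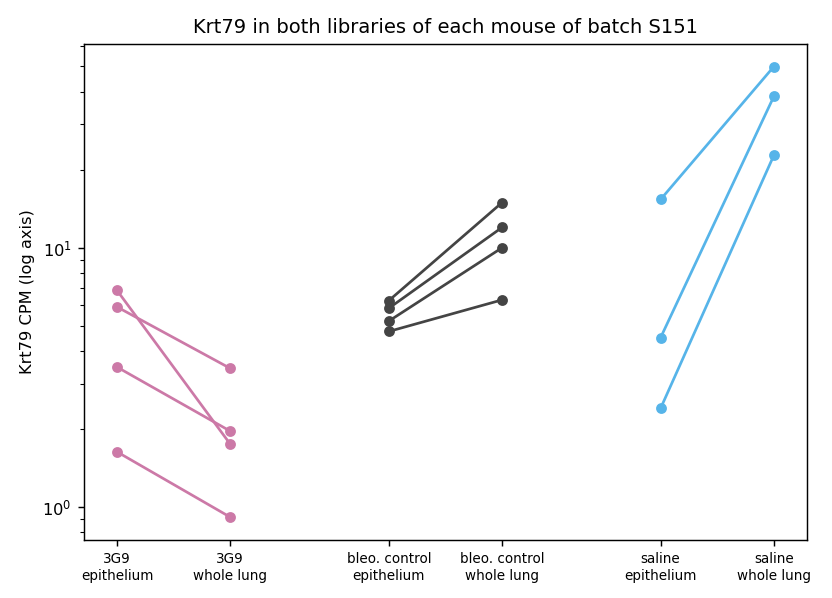
Krt79 CPM on a log axis in the epithelial and the whole lung library of each mouse of batch S151; lines join the libraries of a mouse. With 3G9 the lines run down to whole lung values of 0.916 to 3.43 CPM, and in bleomycin control and saline mice they run up; under TMM scaling mouse 204 turns.

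Genes most like each member were found by Pearson's r of log2(CPM + 1), centred within batches, over the 24 libraries of a compartment. The genes ranked were those with a mean of at least 5 CPM. Of the members, these were Krt5, Krt15 and Krt6a in epithelium and Krt15 and Krt79 in whole lung. Members under that mean were not ranked as the other gene, so not all pairs of members were compared. The values share libraries, depth and arms, and are given as a description. In whole lung, the gene closest to Krt5 among 12403 was Krt15 (r = 0.81, Spearman's rho = 0.86). In epithelium Krt15 was the third closest to Krt5 among 10721 (r = 0.70), the closest to Krt17 among 10722 (r = 0.77) and the closest to Trp63 (r = 0.67). Krt15 was thus close to Krt5, Krt17 and Trp63 in epithelium within batches. Krt6a passed the level minimum through S061 alone and Krt14 was not ranked, so neither is described in this way. In whole lung, Krt15 stood at rank 1561 of 12403 for Trp63 (r = 0.34).

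Krt79 stood apart from Krt5 and Krt15. Its r with Krt5 was -0.42 in epithelium and -0.13 in whole lung, and with Krt15 it was -0.26 in epithelium and 0.02 in whole lung. The gene closest to it in whole lung was ENSMUSG00000072601 (r = 0.89, rho = 0.87), which the sources used here do not name. Ngfr in whole lung had an r of 0.20 with Krt15, rank 5255 of 12403.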

How the data were processed

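RNA of 24 mice was measured in 48 libraries, an epithelial and a whole lung library each. The authors deposited 1 table of raw read counts, whole numbers per Ensembl gene and library, with 42548 genes. STAR 2.5.2b and the GRCm38 build are named by the submitters' processing notes; for the counting program and annotation, the sources used here give none. Column names give the mouse and a letter, E being read as epithelium and I as whole lung; 1 whole lung column, of 3G9 mouse 218, has an unexplained suffix. No 2 libraries had identical counts, and 0 columns were left unused. Gene names of the 8 genes come from the rule that chose them, because the reference gene table matched 0 of the IDs. The 20 lists of other genes (147 symbols) could not be applied. The 8 genes and the lists were chosen with earlier results of these data known.

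CPM are counts divided by the library total and scaled to a common size, computed in Python 3.11.15. Fold changes come from edgeR 4.0.16 in R 4.3.3 (quasi-likelihood test, TMM, filterByExpr, robust dispersions, Benjamini-Hochberg adjustment over all genes tested), on all 24 libraries of a compartment with terms for arm and batch. Compartments were compared with the mouse as a block. Standard errors are the log2 fold change over the root of F. The scripts were tested on simulated data. Mouse numbers in the labels give the pairing. Deviations from the mean of an arm and batch, over 10841 genes, had a median r of 0.29 (range 0.12 to 0.71) between libraries of the same mouse. Between different mice of an arm and batch it was -0.13. Subtracting the mean of so few mice pushes that r below 0, so it is no baseline for unpaired mice. In comparisons of arms, the p-values behind calls measure the spread between mice of an arm after the batch term, shared over the arms fitted. With the mouse as a block, they measure how the difference between the libraries of a mouse varied from mouse to mouse. Floors and intervals from counts cover counting error only. The genes named are the 8, and, for likeness, the closest genes by Pearson's r among genes with a median of at least 1 CPM for the member and a mean of at least 5 CPM for the other gene, with at most 2 unnamed IDs given. Alternatives were DESeq2 1.42.0, RLE size factors, no filter on low counts, only the arms compared, sex as a term, fits without S061 or within a batch, leaving out each mouse in turn, and no replicate block.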

Additional observations from a re-analysis of the deposited data

Results flagged for a closer look

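In 7 of 64 groups of 4 to 9 libraries (a gene in an arm and compartment), the highest library lay farther from its nearest neighbour, relative to the range of the group, than Dixon's 95% limit allows. For normally distributed values, chance alone gives such a gap in about 1 in 20 groups. CPM with many values of 0 need not follow that rate, and the arms span batches. In the Krt6a groups of saline mice, 1 library above 0 makes the gap equal to the range, so they are flagged by construction. Of the 7 groups, 6 are saline groups. Among saline mice, mouse 152 of S135 had the highest Krt14 in epithelium (0.551 CPM), the highest Krt6a in epithelium (0.0551 CPM, a single read) and the highest Krt6a in whole lung (0.520 CPM). Mouse 207 of S151 had the highest Krt5 in whole lung (7.35 CPM, next 2.65 CPM) and the highest Trp63 in epithelium (3.35 CPM, next 1.33 CPM) of saline mice. Mouse 221 of S151 had the highest epithelial Krt79 of saline mice (15.4 CPM, next 4.51 CPM). Among bleomycin control mice, mouse 45 of S061 had the highest epithelial Krt15 (447 CPM, next 233 CPM).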

How the results depend on the processing

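The numbers of the 8 genes called changed as follows. For bleomycin control against saline in epithelium, where 1 was called, DESeq2 called 2 (Krt6a and Krt17), and the fit of only the 2 arms and the fits within S135 and within S151 called 0; leaving out a mouse gave 1 to 2. In whole lung, where 1 was called, DESeq2 called 2 (Krt6a and Krt79) and the fit within S135 called 0, with 1 to 2 when a mouse was left out. For 3G9 in whole lung, where 1 was called, the fit of only the 2 arms and the fit within S151 called 0, with 0 to 1 when a mouse was left out. The fits within a batch or on 2 arms hold fewer mice. For bleomycin control against saline, Krt6a did not reach the count filter in epithelium with only the 2 arms or within S135, nor in whole lung within either batch. Epithelium against whole lung gave 3 in each fit of saline mice and 4 to 6 in bleomycin control mice when a mouse was left out. Without S061, an alternative chosen after seeing the data, it gave 4, without Krt6a. Without the replicate block it gave 3 in saline and 5 in bleomycin control mice, and 0 for the difference of the bleomycin response, as with the block. KIRA8 in either compartment and 3G9 in epithelium gave 0 in each alternative run. Of 1344 alternative fold changes of the 8 genes, 1327 moved by less than 1 SD between replicates, 17 moved by more, and no called value changed sign.

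Counts over all genes moved more. For KIRA8, 45 genes in epithelium became 9 with only the 2 arms, 2 without S061, 134 within S061, 15 within S135 and 262 by DESeq2, and 102 in whole lung became 22 with only the 2 arms, 3 without S061, 0 within S135, 54 without the filter, 66 with sex as a term and 699 by DESeq2. For 3G9, 0 in epithelium became 71 by DESeq2, and 38 in whole lung became 0 with only the 2 arms or within S151, 19 without S061 and 234 by DESeq2. For bleomycin control against saline, 1508 in epithelium became 213 within S135 and 321 within S151, and 1962 in whole lung became 79 within S135, 774 within S151 and 2989 by DESeq2. The 29 genes of the interaction became 85 without the filter, 9 without the block, 16 without S061 and 195 by DESeq2. The causes were not tested. The lists of other genes were not run, since their symbols could not be paired with the IDs. TMM scaling for the count of mice higher in epithelium was also chosen after seeing the data. Outside S061, Krt6a, Krt14, Krt17 and, in epithelium, Ngfr rest on few or no counts in many libraries, which limits their precision.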
